A study of Mus musculus with 8 samples.

Results

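The 10 genes described here, Arntl, Clock, Per1, Per2, Per3, Cry1, Cry2, Nr1d1, Nr1d2 and Dbp, form the core of the mammalian circadian clock and its first output step. They were taken by name from a list chosen with earlier results of these data known. All 10 were found among the 17700 genes with counts and among the 14191 with enough counts to be tested. RNA came from the cerebellum of 8 C57BL/6JN mice. The old group held 2 males of 83 and 93 weeks and 2 females of 83 and 102 weeks, and the young group held 2 males of 19 weeks and 2 females of 19 and 22 weeks. Neither group carried a transgene or received an agent according to the labels, which give no hour of tissue collection. The series' general description names liver and other ages. The sample labels, used here, name cerebellum, and its markers were abundant: Gabra6, a receptor subunit of granule neurons, lay between 394 and 769 CPM, and Pcp2, a Purkinje cell gene, between 139 and 195 CPM. CPM is the usual depth-scaled count, here over the TMM-adjusted library total.

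The clock is a transcriptional feedback loop with a period of about a day. ARNTL (also called BMAL1) and CLOCK bind together at E-box sequences and switch on the Per and Cry genes, whose proteins later shut their own activator down. The same activator switches on Nr1d1 and Nr1d2, which encode the REV-ERB repressors, and these act with the ROR activators on ROR elements, through which Arntl transcription is timed. Dbp, another E-box target, encodes a transcription factor that binds D-box sequences and passes the rhythm on to other genes. In rhythmic tissues Arntl and E-box targets such as Dbp peak at opposite times of day, and not all members peak together. The level of a rhythmic gene in a single library therefore depends on when the animal was killed.

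Library totals ran from 6079485 to 7236720 counts, and 3 counts were worth 0.421 to 0.511 CPM. Some libraries differed in RNA of genes typical of other tissues, and its source was not tested. The 7 liver genes, headed by Alb, added up to 84.1, 23.6 and 21.2 CPM in old 2, old 3 and young 4 and to 0.681 to 9.61 CPM in the other 5 libraries. The 9 choroid plexus genes, headed by Ttr, summed to 106, 137 and 83.1 CPM in old 3, young 3 and young 4 and to between 508 and 1502 CPM in the other libraries. Granule neuron markers summed to between 4654 and 6494 CPM in old and between 5134 and 7914 CPM in young mice. The 4 pineal genes in the tables, headed by the melatonin synthesis enzyme Aanat, summed to at most 2.88 CPM in any library.

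Promoter sequences show which of these motifs lie close to the start of each gene. They are printed for 4 members as examples of windows with a D-box, a ROR element and each spelling of the E-box. RefSeq windows on GRCm38.p6, running from 250 bases before to 50 bases after a transcription start site, were available for 9 of the 10 genes in 13 windows. Per2 had none. An E-box, spelled CACGTG or CACGTT and searched on both strands, lay in a window of Per1, Cry1, Cry2 and Nr1d1, and 11.4% of all 32851 windows hold one. The D-box TTATGTAA or TTACGTAA occurred in Per3 and in 1.06% of all windows, and the ROR element core TAGGTCA or TGGGTCA in Arntl and in 6.45%. The cyclic AMP element TGACGTCA was in no member's window and in 1.79% of all windows. CACGTG reads the same on both strands, and no match in a member's window overlapped another. A match is a match of letters and was not tested as a binding site. Motif letters are in capitals in the following windows, each read 5′ to 3′ on the strand of its gene.

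Per3 (chr4:151044616-151044915, minus strand), with 2 copies of the D-box TTATGTAA starting 205 and 158 bases before the start site: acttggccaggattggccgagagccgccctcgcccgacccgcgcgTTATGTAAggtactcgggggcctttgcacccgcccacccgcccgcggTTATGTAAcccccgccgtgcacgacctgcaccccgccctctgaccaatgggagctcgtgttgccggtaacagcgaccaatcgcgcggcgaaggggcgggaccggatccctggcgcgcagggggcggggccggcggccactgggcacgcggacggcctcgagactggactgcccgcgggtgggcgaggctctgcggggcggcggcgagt

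Nr1d1 (chr11:98775328-98775627, minus strand), with CACGTT on the opposite strand starting 28 bases before the start site: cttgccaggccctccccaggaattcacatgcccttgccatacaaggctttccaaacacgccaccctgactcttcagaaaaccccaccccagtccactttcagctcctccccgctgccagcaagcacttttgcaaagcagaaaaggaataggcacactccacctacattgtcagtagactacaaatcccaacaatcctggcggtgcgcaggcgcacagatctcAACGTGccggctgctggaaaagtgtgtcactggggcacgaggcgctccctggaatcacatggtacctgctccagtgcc

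Per1 (chr11:69098699-69098998, plus strand), with CACGTG starting 166 bases before the start site: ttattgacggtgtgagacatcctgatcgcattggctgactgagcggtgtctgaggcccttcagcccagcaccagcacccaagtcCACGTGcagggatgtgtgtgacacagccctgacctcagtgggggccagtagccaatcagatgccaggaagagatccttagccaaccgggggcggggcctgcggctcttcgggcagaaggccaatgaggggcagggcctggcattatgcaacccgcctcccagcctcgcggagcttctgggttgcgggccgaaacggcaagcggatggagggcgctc

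Arntl (chr7:113207261-113207560, plus strand), with TAGGTCA from base 31 of the transcript: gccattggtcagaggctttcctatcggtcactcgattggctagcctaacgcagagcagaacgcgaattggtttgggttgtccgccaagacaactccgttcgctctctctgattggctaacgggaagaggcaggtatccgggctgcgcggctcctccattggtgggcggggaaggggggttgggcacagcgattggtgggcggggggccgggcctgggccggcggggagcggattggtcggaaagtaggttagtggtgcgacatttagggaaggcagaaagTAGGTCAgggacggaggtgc

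Levels were compared between genes per kilobase of annotated exon, as mean CPM per kb over the 8 libraries. Nr1d2 stood highest at 50.9 ± 7.75 CPM per kb (SD, n = 8), followed by its paralogue Nr1d1 at 37.8 ± 6.88. Cry2 at 19.6 ± 0.881, Clock at 19.1 ± 0.946, Per1 at 16.8 ± 2.49 and Dbp at 14.1 ± 4.58 came next. Cry1 stood at 8.40 ± 0.658, Per2 at 7.37 ± 2.06, Per3 at 7.09 ± 1.53 and Arntl lowest at 4.01 ± 0.417. Neighbours in this order overlapped over the 8 libraries, except that Nr1d1 lay wholly above Cry2, Dbp just above Cry1 (lowest 9.12 against highest 9.11 CPM per kb) and Per3 wholly above Arntl. On GRCm38 (GENCODE M21) the plus-strand members are Arntl on chromosome 7 at 113207465 to 113314126, Dbp on the same chromosome at 45705088 to 45710203 and Per1 on chromosome 11 at 69095217 to 69109960. On the minus strand lie Nr1d1 on chromosome 11 at 98767932 to 98775333, Nr1d2 on chromosome 14 at 18204054 to 18239127, Clock on chromosome 5 at 76209868 to 76304792 and Cry1 on chromosome 10 at 85131700 to 85185064. Cry2, also on the minus strand, is on chromosome 2 at 92403646 to 92434043, and Per3 on chromosome 4 at 151003652 to 151044665. Annotated exons include rarely used ones, so a level per kb is approximate. In whole tissue, fewer cells of a type and less RNA per cell cannot be told apart.

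In the comparison of old with young cerebellum, no clock gene passed the test, and Per2 was the member with the largest difference. By edgeR's quasi-likelihood test with a term for sex, 0 of 10 members had an adjusted p under 0.05, while 0.120% of all genes tested did (14 higher and 3 lower in old mice). At an unadjusted p under 0.05 there were 2 members, Per2 and Per3, against 11.0% of all genes. Of the members, 6 had a positive and 4 had a negative log2 fold change, with a median of 0.03, beside a median of -0.01 over all genes. In 1 member, Per2, every old value lay above every young value, a pattern that 3.15% of genes showed, and in no member did every old value lie below, against 3.42% of genes.

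**Figure D1:**
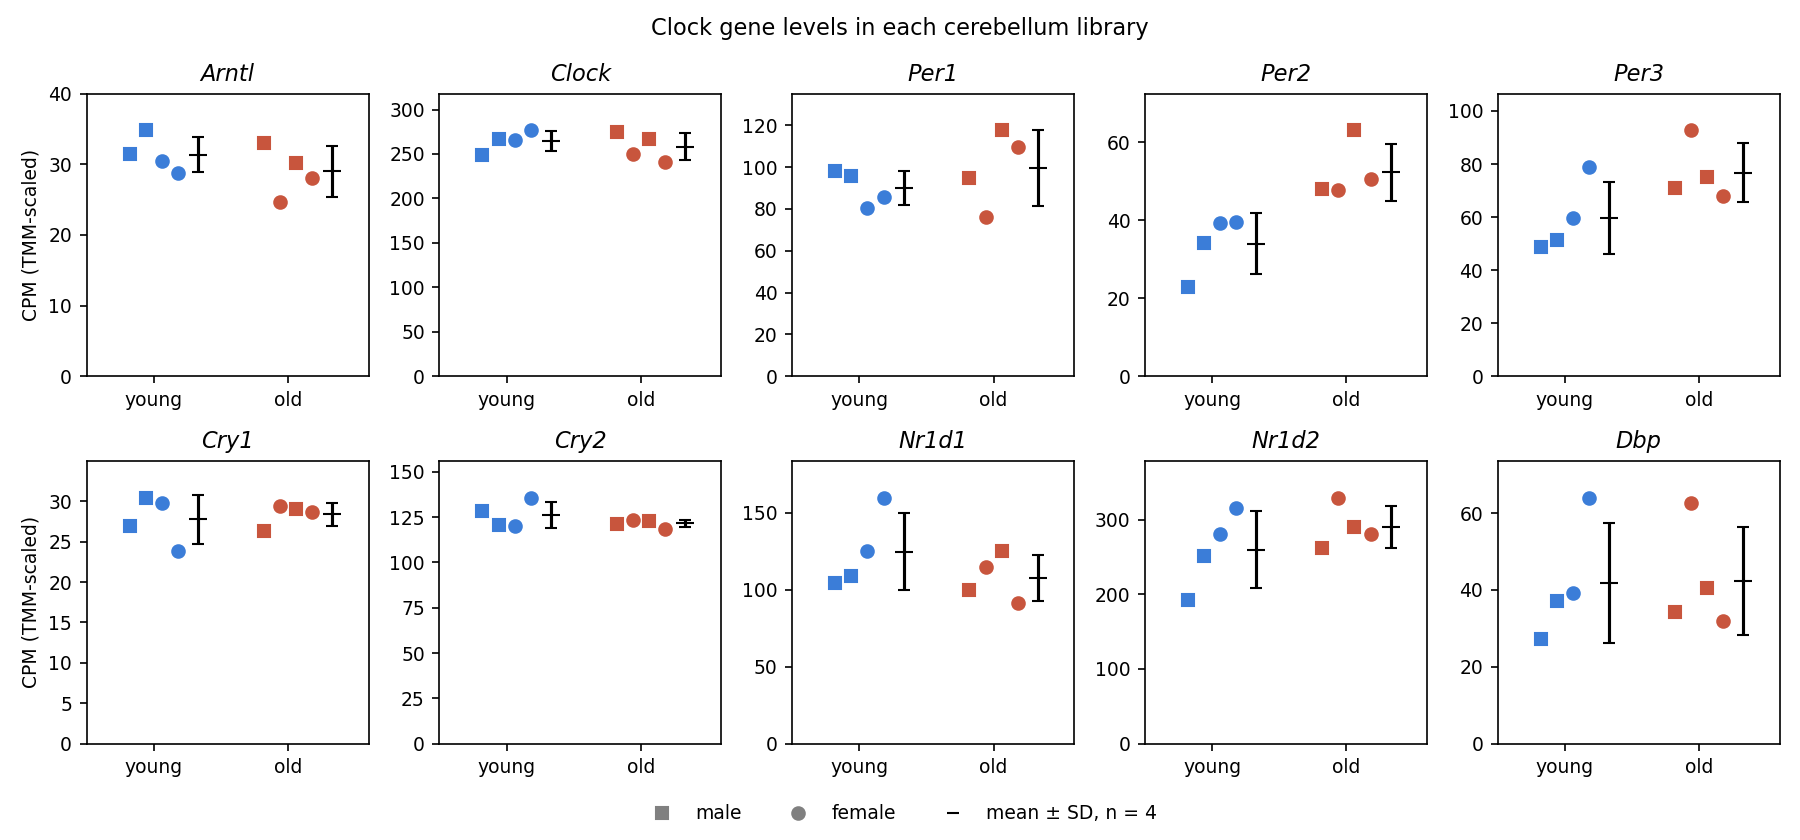
Level of each clock gene in CPM (vertical axis, starting at 0) in every library of young and old cerebellum, with squares for males, circles for females and bars for the mean ± SD of 4 libraries. Per2 is the panel in which the old libraries, 47.6 to 63.1 CPM, all stand above the young ones, 22.8 to 39.6 CPM, and Dbp is high in 1 library of each age.

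The activators did not pass the test for age. Arntl, the activator that the clock cannot run without, had 33.1, 24.6, 30.2 and 28.1 CPM in old 1 to old 4 and 31.5, 34.8, 30.5 and 28.8 CPM in young 1 to young 4. The groups overlapped, and old 2 was the lowest library. Its log2 fold change, old minus young, was -0.12 ± 0.10 (SE), with a 95% interval of -0.33 to 0.10. Clock, its partner, ranged from 241 to 275 CPM in old and from 249 to 277 CPM in young mice. Its log2 fold change was -0.04 ± 0.07, with an interval of -0.20 to 0.12.

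Per2, a repressor that is rhythmic in most tissues and also answers to hormones and cell signals, had 48.0, 47.6, 63.1 and 50.7 CPM in old 1 to old 4 and 22.8, 34.2, 39.2 and 39.6 CPM in young 1 to young 4. Old 3 was the highest library and young 1, a male, the lowest. The log2 fold change was 0.63 ± 0.16 (SE), a ratio of 1.55, with a 95% interval of 0.27 to 0.99 and an adjusted p = 0.203 by edgeR's quasi-likelihood test. It ranked as number 205 of 14191 genes by p. By the DESeq2 Wald test the adjusted p was 0.0295, a test under which 0.881% of all genes passed, and without young 1 the log2 fold change was 0.47 by edgeR. The summed level of 6 microglia markers, headed by P2ry12, also did not overlap between the ages. It was 141 to 262 CPM in old and 92.5 to 130 CPM in young mice. Taken singly, 3 of the 6 had every old value above every young one, against 3.15% of all genes. P2ry12 overlapped, at 16.3 CPM in old 3 and 20.6 CPM in young 3. The part of these markers in the Per2 difference was not tested. Per2 lies on chromosome 1 at 91415982 to 91459324 on the minus strand of GRCm38.

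Per3, a PER protein that is not needed for the rhythm itself, had 71.1, 92.7, 75.0 and 67.9 CPM in old 1 to old 4 and 48.7, 51.3, 59.8 and 78.8 CPM in young 1 to young 4. Only young 4 reached into the old range. Its log2 fold change was 0.37 ± 0.13 with an interval of 0.10 to 0.65 and an adjusted p = 0.298 by edgeR's quasi-likelihood test. With the granule neuron marker score as a covariate the log2 fold change was 0.50 with an adjusted p of 0.0496 by edgeR, a fit in which 0.754% of all genes passed. With an index of 7 clock genes outside the 10 as a covariate it was 0.24 with an adjusted p of 0.342. Per1, the PER gene most directly induced by neuronal activity and glucocorticoids, had 95.0, 76.3, 118 and 110 CPM in old 1 to old 4 and 98.3, 95.6, 80.6 and 85.7 CPM in young 1 to young 4. Its groups overlapped, with a log2 fold change of 0.14 ± 0.11 and an interval of -0.10 to 0.39. It was 0.031 without old 4, 0.078 without old 3 and 0.24 without old 2.

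The cryptochromes, the strongest repressors of the activator pair, differed little between the ages. Cry1 ranged from 26.3 to 29.4 CPM in old and from 23.9 to 30.4 CPM in young mice, with a log2 fold change of 0.04 ± 0.11 and an interval of -0.20 to 0.28. Cry2 ranged from 119 to 123 CPM in old and from 120 to 136 CPM in young mice. Its log2 fold change was -0.06 ± 0.07, with an interval of -0.21 to 0.10.

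The REV-ERB genes did not pass, and their log2 fold changes had opposite signs. Nr1d1 had 99.6, 115, 125 and 91.4 CPM in old 1 to old 4 and 105, 109, 125 and 160 CPM in young 1 to young 4, and young 4 stood above every other library. Its log2 fold change was -0.20 ± 0.14 with an interval of -0.51 to 0.11, and it was -0.33 without old 3, -0.086 without old 4 and -0.072 without young 4. Nr1d2 had 262, 329, 290 and 281 CPM in old 1 to old 4 and 193, 251, 281 and 315 CPM in young 1 to young 4, with young 1 lowest and old 2 highest. Its log2 fold change was 0.17 ± 0.10 with an interval of -0.06 to 0.40, and it was 0.077 without young 1 and 0.11 without old 3. Nr1d1 shares 8.55% of its exon bases with Thra, a thyroid hormone receptor gene on the opposite strand, and the strand setting of the counting is not given in the sources used here. Some reads could belong to either gene. Thra lay between 118 and 151 CPM.

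Dbp, the output gene, had similar means at both ages, 42.3 ± 14.0 CPM (SD, n = 4) in old and 41.9 ± 15.6 CPM in young mice. It had 34.3, 62.6, 40.6 and 31.9 CPM in old 1 to old 4 and 27.3, 37.2, 39.2 and 64.0 CPM in young 1 to young 4. Old 2 and young 4, both females, stood apart above the other 6 libraries. The log2 fold change was 0.03 ± 0.24 with an interval of -0.52 to 0.58, and with 1 library left out at a time it ran from -0.15 to 0.24, negative without old 2, old 3, young 1 or young 3. Dbp shares 18.0% of its exon bases with Sphk2, a sphingosine kinase gene on the opposite strand, which lay between 35.0 and 50.5 CPM and was highest in old 3.

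**Figure D2:**
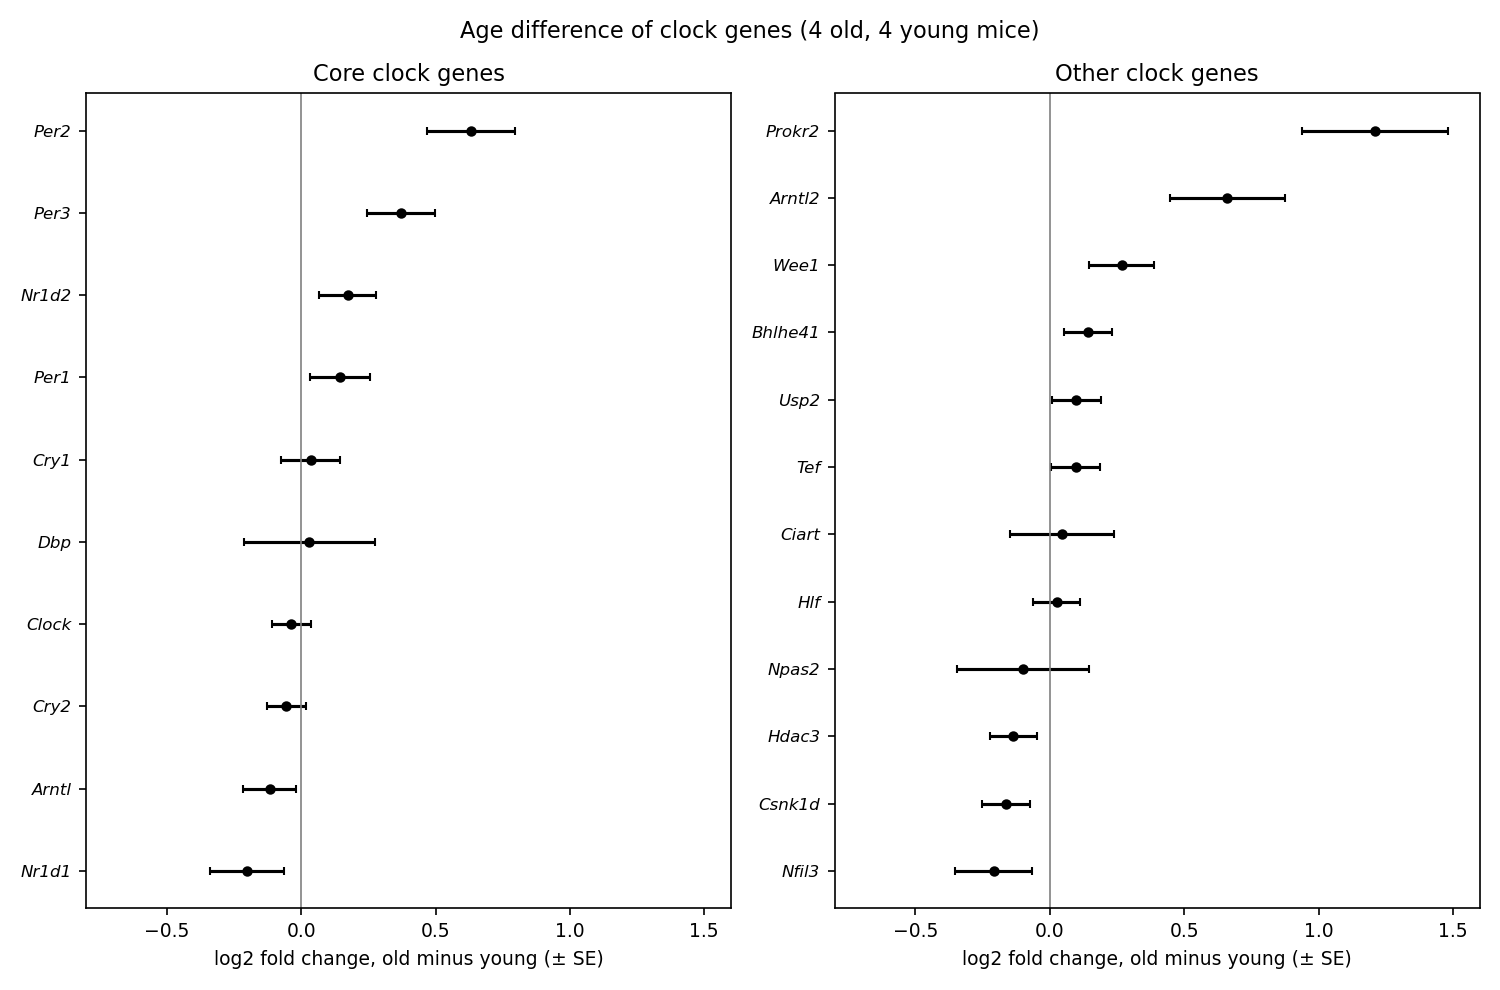
Log2 fold change of old minus young (horizontal axis, dots) with SE (bars) for the 10 core clock genes on the left and a selection of other clock genes on the right, ordered by size. Per2 at 0.63 and Per3 at 0.37 lead the left panel, Prokr2 at 1.21 and Arntl2 at 0.66 the right, and none passed the test.

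The comparison of females with males used the same fit with a term for age. By edgeR's quasi-likelihood test 0 of 10 members passed an adjusted p of 0.05 for sex, against 0.0423% of all genes, and 2, Per3 and Nr1d2, had an unadjusted p under 0.05, against 4.76%. Dbp was at 49.4 ± 16.3 CPM (SD, n = 4) in females and 34.8 ± 5.64 CPM in males, a log2 fold change, female minus male, of 0.51 ± 0.24 (SE), and without young 4 the log2 fold change was 0.32. The high mean of females rests on old 2 and young 4, since the remaining females, old 4 at 31.9 and young 3 at 39.2 CPM, lay within the male range of 27.3 to 40.6 CPM. Per3 had a log2 fold change of 0.30 ± 0.13, which was 0.18 without young 4. Nr1d2 was at 0.28 ± 0.11, and at 0.17 without young 1, and Arntl was at -0.21 ± 0.10. The age difference itself was tested for a difference between the sexes by an interaction term. No gene passed by edgeR's quasi-likelihood test (0% of all genes), and at an unadjusted p under 0.05 there were 2 members, Per2 at -0.64 ± 0.27 and Nr1d1 at -0.54 ± 0.23 on the log2 scale (negative where old minus young was lower in females than in males), against 2.30% of all genes. Each age and sex held 2 mice, so 1 library weighs heavily in an interaction. The young males had 22.8 and 34.2 CPM of Per2, and the young females had 125 and 160 CPM of Nr1d1. By DESeq2 1 gene passed for the interaction, and it was no member.

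The spread between animals divided the members into a variable and a steady group. The SD of log2 CPM within an age, pooled over both ages, was 0.47 for Dbp, 0.29 for Per2, 0.26 for Per3, 0.24 for Nr1d1, 0.23 for Nr1d2 and 0.22 for Per1. Among genes whose mean lay within 0.5 log2 units, 98.9% had a smaller spread than Dbp, 94.4% than Nr1d2, 94.0% than Per3, 93.8% than Per2, 93.2% than Nr1d1 and 89.7% than Per1. The other 4 members lay at 41.9% for Arntl (SD 0.15), 22.0% for Cry1 (SD 0.12), 16.4% for Clock (SD 0.08) and 5.82% for Cry2 (SD 0.06). These percentages are descriptions of 8 libraries and carry no test.

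**Figure D3:**
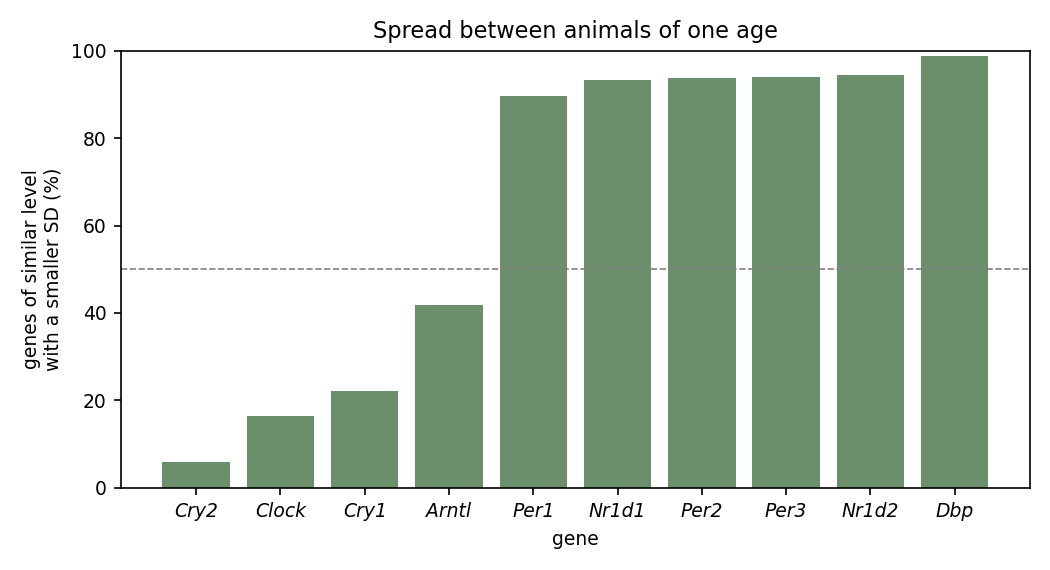
Bars give, for each clock gene, the percentage of genes of similar mean level whose SD between animals of one age is smaller (vertical axis, 0 to 100%, dashed line at 50%). Dbp stands at 98.9% and 5 further genes between 89.7% and 94.4%, whereas Cry2, Clock, Cry1 and Arntl stand between 5.82% and 41.9%.

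The next question was which clock genes moved together between libraries and which moved apart. In old 2 and young 4, Dbp lay 0.63 and 0.66 log2 units above its mean over the 8 libraries, Per3 0.47 and 0.24 above and Nr1d2 0.27 and 0.21 above, while Arntl lay at -0.28 and -0.06. In young 1 the order was turned over, with Dbp at -0.56, Nr1d2 at -0.50, Per3 at -0.45, Per2 at -0.86 and Arntl at 0.07. The difference between Dbp and Arntl in log2 CPM was 1.34 in old 2 and 1.14 in young 4, and between -0.20 and 0.42 in the other 6 libraries, with young 1 lowest. Per2 followed this order in part: young 1 was its lowest library too, but it was highest in old 3, at 0.60 above its mean, where Dbp was at 0.01. Nr1d1 was high in young 4, at 0.48, but at its mean in old 2. Per1 went the other way from Dbp, at -0.30 in old 2, its lowest library, -0.13 in young 4 and 0.07 in young 1. Cry1 was at 0.07 in old 2 and -0.23 in young 4.

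Of 7 further clock genes, Ciart and Tef had their 2 highest and Nfil3 its 2 lowest values in the same libraries. Hlf, which counts as positive in an index of these genes, had its 2 lowest values there, at 233 and 226 CPM in old 2 and young 4 against 238 to 280 CPM elsewhere, and Usp2, Bhlhe41 and Npas2 did not place both libraries at one end. Ciart, an E-box target that encodes a repressor, had 22.5 and 20.1 CPM in old 2 and young 4, against 11.8 to 15.6 CPM elsewhere. Nfil3, which encodes the repressor that competes with DBP at D-boxes and is itself under ROR element control, had 21.4 and 25.8 CPM in old 2 and young 4 and between 32.1 and 40.0 CPM elsewhere. An index of Ciart, Tef, Hlf, Usp2 and Bhlhe41 minus Npas2 and Nfil3 was 0.52 in old 2 and 0.41 in young 4 and between -0.35 and 0.09 elsewhere. Old 2 and young 4 were, with old 3, the libraries richest in liver genes, as given above, and the part of liver RNA in this pattern was not tested.

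**Figure D4:**
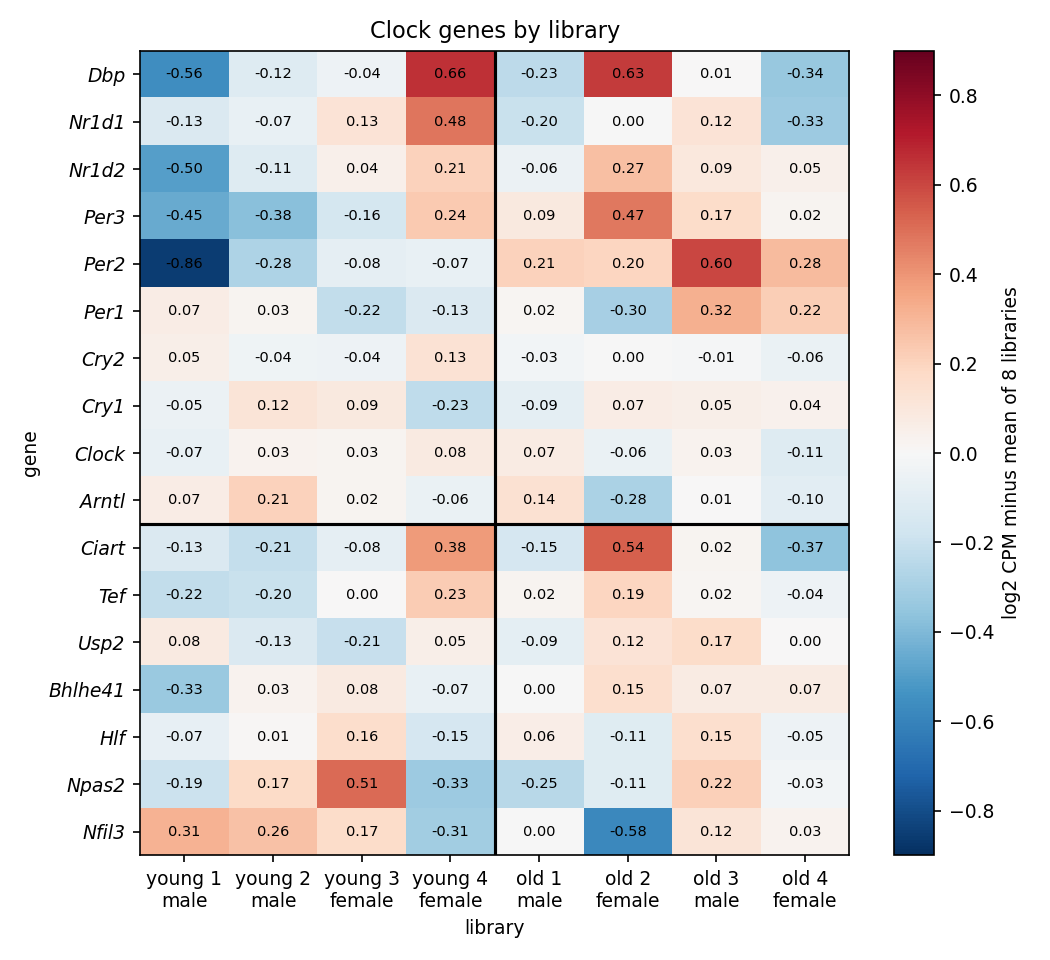
Log2 CPM of each gene minus its mean over the 8 libraries, as colour and printed value, with the 10 core clock genes above the line and 7 further clock genes below it, and young libraries left of old ones. Dbp, Per3, Nr1d2 and Ciart are high and Nfil3 is low in young 4 and old 2, and the Clock and Cry2 rows stay within 0.13 of 0.

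Correlations between members over the 8 libraries were computed for all 45 pairs, with exact two-sided permutation of the pairings and Benjamini-Hochberg adjustment over the 45. Of the Pearson coefficients 26 were positive and 19 negative, 8 had an exact p under 0.05 and none passed after adjustment. The closest positive pair was Per3 with Nr1d2, at r = 0.87 (exact permutation p = 0.00275, adjusted 0.124) and Spearman's rho = 0.93 (exact permutation p = 0.00223, adjusted 0.100). Without young 1 and young 2, the libraries farthest from the median of Per3, r was 0.77. Nr1d2 with Dbp had r = 0.83 (exact permutation p = 0.00665, adjusted 0.150) and rho = 0.81 (exact permutation p = 0.0218, adjusted 0.245), and r was 0.76 without young 1 and old 2 and 0.80 without old 2 and young 4. All genes of a library share its depth and its scaling. The permutation took no account of age, so a difference between the ages that 2 genes share enters their coefficient. Per2 and Per3, for example, both had higher means in old mice.

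Of the 8 pairs with an exact p under 0.05, those 2 and Arntl with Per3 aside, 5 remained: Cry1 with Cry2, Per3 with Dbp, Per2 with Per3, Nr1d1 with Dbp and Per2 with Nr1d2, each with an adjusted p of 0.241. The 2 cryptochromes had the lowest coefficient of all pairs, r = -0.82 (exact permutation p = 0.0227) and rho = -0.52 (exact permutation p = 0.197, adjusted 0.770), and r was -0.73 without young 4 and old 1. Per2 with Nr1d2 had r = 0.75 (exact permutation p = 0.0428) and rho = 0.57 (exact permutation p = 0.151, adjusted 0.770), and r was 0.31 without young 1 and old 3, on which it rests. Per2 with Per3 had r = 0.74 (exact permutation p = 0.0338) and rho = 0.62 (exact permutation p = 0.115, adjusted 0.739), and r was 0.64 without the same libraries. Per3 with Dbp had r = 0.76 (exact permutation p = 0.0279) and rho = 0.79 (exact permutation p = 0.0279, adjusted 0.251), and r was 0.74 without young 1 and young 2. Without old 2 and young 4, the libraries highest in Dbp, this r was 0.47. Nr1d1 with Dbp had r = 0.73 (exact permutation p = 0.0407) and rho = 0.83 (exact permutation p = 0.0154, adjusted 0.231), and r was 0.44 without young 4 and old 4 and 0.70 without old 2 and young 4. Outside these pairs, Per1 with Dbp had a negative coefficient, r = -0.59 (exact permutation p = 0.123, adjusted 0.425), which was -0.07 without old 2 and young 4.

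**Figure D5:**
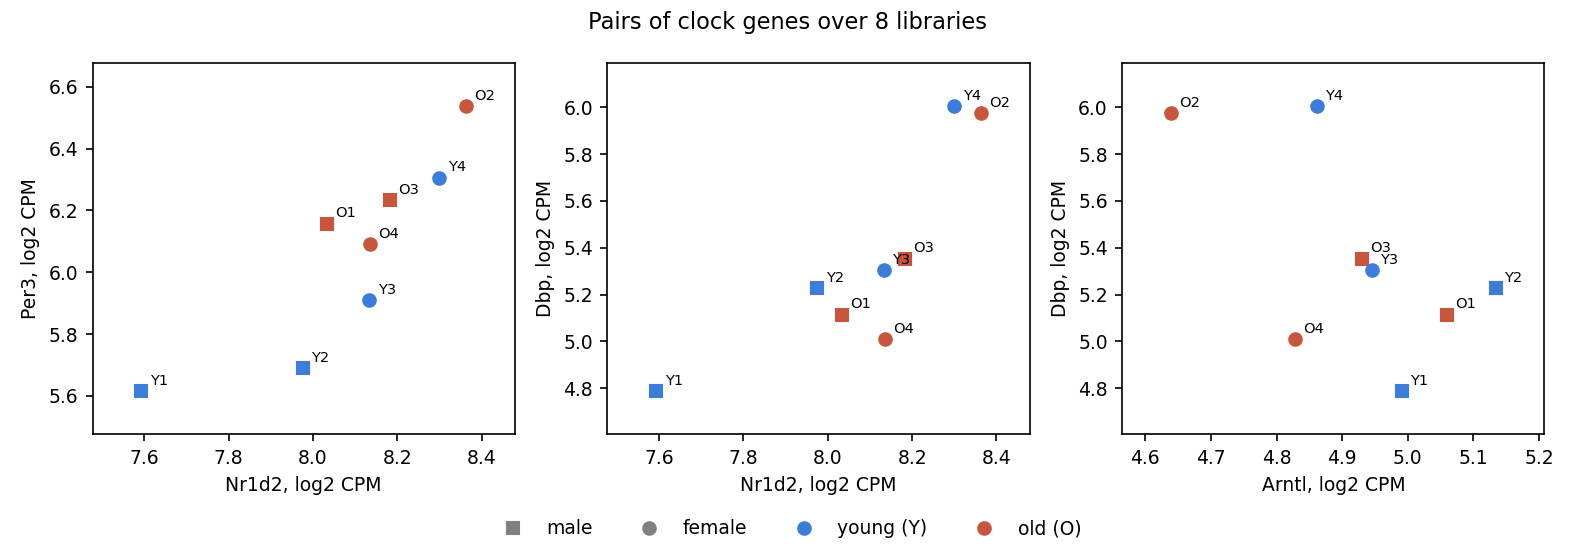
Each point is a library (O for old, Y for young; squares male, circles female) placed by the log2 CPM of 2 clock genes on the horizontal and vertical axes. Per3 and Dbp are higher where Nr1d2 is higher (r of 0.87 and 0.83), and in the right panel Dbp is highest in old 2 and young 4, where Arntl is 4.64 and 4.86 log2 CPM.

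Arntl had negative coefficients with Per3, Nr1d2 and Dbp. Against Per3 it had r = -0.75 (exact permutation p = 0.0294, adjusted 0.241) and rho = -0.69 (exact permutation p = 0.0694, adjusted 0.520). Without both old 2 and young 2, the libraries farthest from the median of Arntl, this r was -0.34, and the relation rests on the pair of them together: it was -0.56 without old 2 alone and -0.66 without young 2 alone. Against Nr1d2 it had r = -0.63 (exact permutation p = 0.103, adjusted 0.420) and rho = -0.86 (exact permutation p = 0.0107, adjusted 0.231), and against Dbp r = -0.61 (exact permutation p = 0.111, adjusted 0.420) and rho = -0.45 (exact permutation p = 0.267, adjusted 0.770). Leaving out old 2 and young 2, these were -0.53 and -0.41. With only the 6 libraries other than old 2 and young 4, the r of Arntl with Dbp was 0.10. Taken as deviations from the mean of each age, Arntl had r = -0.70 with Per3, -0.55 with Nr1d2 and -0.65 with Dbp. In the same way r was 0.58 with Per1, -0.04 with Per2 and -0.43 with Nr1d1, against 0.36, -0.35 and -0.17 with age left in. Among all other genes tested, 2.62% had an r with Arntl as low as that of Per3, 7.67% as low as Nr1d2 and 8.71% as low as Dbp. With its partner Clock, Arntl had r = 0.48 (exact permutation p = 0.235, adjusted 0.702), and 15.2% of genes were as high.

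The genes most like Arntl and Dbp over the 8 libraries were not clock genes. Among 10843 named genes with a mean of at least 3 log2 CPM, the highest r with Dbp was that of Stag2, a cohesin subunit gene, at 0.99, followed by Luc7l3 at 0.98, and Bicd1 and Neto2 at 0.97. The lowest was Kcnk13, a potassium channel gene, at -0.97. With Arntl, Mturn had the highest r at 0.95 and Strip2 the lowest at -0.98. Among the members, Nr1d2 was the closest to Dbp, and 2.27% of all genes tested had an r as high. These coefficients are the extremes of many genes over 8 libraries and carry no test.

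The other clock genes, a list of 32 that covers the ROR activators, paralogues, kinases, F-box proteins and D-box factors, were all tested, and none passed in either direction for age by edgeR's quasi-likelihood test. Positive values numbered 21 and negative ones 11, around a median of 0.03, and 4 had an unadjusted p under 0.05, near the 11.0% of all genes. In 3 of the 32, Prokr2, Arntl2 and Wee1, the old values lay wholly above the young ones, a pattern of 3.15% of all genes. Prokr2, a receptor for the clock output peptide prokineticin, had 3.98 CPM on average in old mice against 1.72 CPM in young ones, with old minus young at 1.21 ± 0.27 with an adjusted p of 0.125 by edgeR. Arntl2, the paralogue of Arntl, stood at 0.66 ± 0.21, and Wee1, a clock-controlled cell cycle kinase, at 0.27 ± 0.12. Csnk1d, a kinase that marks PER proteins for degradation, was at -0.16 ± 0.09 and Nfil3 at -0.21 ± 0.14. Bhlhe41, a repressor that binds E-boxes, was at 0.14 ± 0.09 and Hdac3, the histone deacetylase recruited by REV-ERB, at -0.14 ± 0.09. Of the D-box factors beside Dbp, Tef was at 0.10 ± 0.09 and Hlf at 0.03 ± 0.09. Usp2, a clock-controlled ubiquitin protease, was at 0.10 ± 0.09, Ciart at 0.05 ± 0.19 and Npas2, the paralogue of Clock, at -0.10 ± 0.25.

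Genes of the inputs that reset clocks were read beside Per1 and Per2, which respond to them. Old minus young was positive for 13 of 14 glucocorticoid-responsive genes (median 0.29), and none passed. Plin4 was at 0.88 ± 0.24, Mt2 and Mt1, the metallothioneins, at 0.29 ± 0.13 and 0.28 ± 0.14, and Ddit4 at -0.33 ± 0.19. Of 17 immediate early genes 14 were negative for age, with a median of -0.31, and none passed. All 17 were negative for female minus male, with a median of -0.36, and none passed. Fos, for example, had 2.73 and 9.12 CPM in the females old 2 and young 4. The females old 4 and young 3 had 33.9 and 20.3 CPM of Fos, against a male range of 29.5 to 48.4 CPM. For age, Egr1 was at -0.49 ± 0.11, Egr3 at -1.42 ± 0.38, Arc at -0.31 ± 0.10 and Jun at -0.42 ± 0.15. All 8 temperature-responsive genes, which include the cold-induced Cirbp and Rbm3 and heat shock genes, were negative for age (median -0.19), and none passed. Hsph1 was at -0.35 ± 0.11, Hspa1a at -0.65 ± 0.30, Hsp90aa1 at -0.14 ± 0.07 and Dnajb1 at -0.24 ± 0.13. For female minus male, all 8 temperature-responsive genes were negative too, with a median of -0.29, and none passed. Over all genes tested 48.6% had a positive value for age, and 6677 of 14191 had a negative value for female minus male.

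Of the DNA hydroxymethylation and methylation genes, which bear on the study's subject, 7 of 8 were tested and none passed. The 5-methylcytosine oxidase genes Tet1, Tet2 and Tet3 are among them, and the median of the 7 was -0.07.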

How the data were processed

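Each library has a deposited table of raw counts per gene (whole numbers, totals differing between libraries), with no scaling by the authors. The submitters' processing notes list GRCm38 and mm10 as builds and, among the tools, featureCounts, STAR 2.7.5b and Trimmomatic 0.39. Annotation, strand and multiple mapping: not given in the sources used here. Total RNA was depleted of ribosomal RNA before library making, per the labels' protocols. Of the 8 tables, 7 hold date-like strings in place of 24 gene names, none a clock gene, and tables were joined by row.

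Genes were kept by filterByExpr (minimum count 10 over age-by-sex cells), scaled with TMM and tested with edgeR 4.0.16 (R 4.3.3) quasi-likelihood, robust, newer dispersions, with terms for age and sex. The 14191 genes tested shared one Benjamini-Hochberg adjustment, read at 0.05. Each SE was derived from the fold change and its F statistic, and a prior count of 2 was set for log2 CPM. Alternatives were DESeq2 1.42.0, limma-voom (limma 3.58.1), other filters and scalings, covariates and libraries left out. The fits were tested on simulated data. Gene spans and exons are from GENCODE M21 (GRCm38).

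The members and gene lists were chosen with earlier results of these data known. Named genes are the members, the 8 other clock genes with the smallest p for age, the genes of the clock index (1 gene is not reported here), the leading 4 genes of each input list and those most like Arntl or Dbp. The labels give each library as a separate sample, and the series' text calls them biological replicates. Over all genes tested, the deviations of old and young libraries with the same number had correlations of 0.16, -0.22, -0.05 and -0.25. These values show no pairing by number, but with so few libraries they cannot exclude one. No 2 libraries of a group agreed within sampling noise (chi-square per degree of freedom 3.86 to 10.5). Counting floors cover counting error only.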

Additional observations from a re-analysis of the deposited data

How the results depend on the processing

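The age comparison called 17 genes, and the count depended on the method: DESeq2's Wald test gave 125, limma-voom 1, the older edgeR dispersions 26, age in weeks 103, and covariates for granule neurons, choroid plexus and the clock index 107, 0 and 105. It was 184 without old 2, old 3 and young 4, 31 without old 2 and young 4 (an alternative chosen after seeing the data), and 0 to 63 with 1 library left out (0 without young 3 or young 4, 63 without old 2, 49 without old 3). The replicate block gave 1, where Per2 was at 0.64 with an adjusted p of 0.386 by edgeR. No old library correlated best with its own number, which cannot exclude a pairing of the samples. The sex count of 6 ran from 4 to 46 with 1 library left out (46 without old 3), and DESeq2 called 1 gene for age by sex. The cause of these shifts was not tested.

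Of 220 member values for age over 22 alternatives, 207 kept sign and side of the threshold, 11 changed sign and 2 passed it: Per2 by DESeq2 (0.64) and Per3 with the granule score (0.50). Per2 stayed positive, at 0.47 to 0.80. Cry1 changed sign with the granule score (-0.023), without old 2, old 3 and young 4 (-0.10) and without old 2 and young 4 (-0.054), and ran from -0.048 to 0.086 with 1 library left out. Dbp was at -0.21 with the clock index, -0.038 with age in weeks, -0.077 without old 2, old 3 and young 4, and ran from -0.15 to 0.24 with 1 library left out. Arntl ran from -0.16 to -0.073, Clock from -0.074 to -0.0056 and Cry2 from -0.087 to -0.015 in the same way. For sex, 115 of 120 values kept both and 5 changed sign, with ranges of -0.047 to 0.28 for Per2, -0.063 to 0.063 for Cry1 and -0.028 to 0.044 for Cry2 with 1 library left out. The r of Arntl with Cry1 was -0.013 without TMM and ran from -0.27 to 0.32 with 1 library left out, and that with Per1 from -0.13 to 0.54. With CACGTG alone, 2 members rather than 4 held an E-box. Depth limits the rarest genes named, such as Prokr2.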
